A study of Mus musculus with 31 samples.

Results

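The 10 genes Muc3, Enpp6, Zkscan16, Rsbn1l, St7, Snx13, Cenpl, Nudcd2, Chd2 and Kbtbd8 hold or lie next to the 10 strongest autosomal hotspots of meiotic DNA breakage in the testis of mice that lack PRDM9. The places were chosen by the deposited strength score of the knockout hotspot list, and are 10 of the 29991 autosomal hotspots in that list and of 414683 hotspots in all lists of the series. A place is named for the protein-coding gene whose span holds the hotspot centre, and otherwise for the one with the nearest end, which is the case for Chd2. Each place was followed in the other 25 lists, and was called found where a hotspot of that list was centred less than 400 bp away.

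Breaks were mapped by DMC1 single-stranded DNA sequencing (SSDS) in 26 genotypes, with 1 library each, and the values therefore carry no error from replicates. The labels give 31 samples, of which 5 are inputs that were not used here. Inbred mice were of 6 strains. PWD stands for PWD/PhJ, MOL for MOLF/EiJ and CAST for CAST/EiJ. B6 is C57Bl/6J and 13R is B10.F-H2pb1/(13R)J, while C3H is C3H/HeJ. Crosses are named with the mother first, so that in PWDfXB6m the mother was PWD and the father B6. B6 was crossed in both directions with 13R, C3H, CAST, MOL and PWD, and the further crosses were C3HfX13Rm, C3HfXCASTm, C3HfXMOLm, CASTfXMOLm, MOLfX13Rm, PWDfX13Rm, PWDfXC3Hm, PWDfXCASTm and PWDfXMOLm. The knockout was homozygous for a targeted Prdm9 allele (B6;129P2-Prdm9<tm1Ymat>/J), whose name gives a mixed B6 and 129P2 origin. The labels and series text used here state neither ages nor pooling of animals. The series text says that a sample, which carries the label CAST here, had been wrongly labelled as a CAST by 13R cross, and values for CAST assume that its present label is right.

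PRDM9 is a zinc-finger protein that binds DNA in early meiosis and methylates histone H3 at lysine 4 (H3K4) beside its binding sites, where the break machinery then acts. Its zinc fingers differ between mouse strains, and so do the hotspots. Without PRDM9, breaks still form, at places that carry H3K4 methylation for other reasons, of which gene promoters are the best known. DMC1 is the recombinase that coats the resected single-stranded ends of the breaks, which is why its DNA marks them. Male offspring of a PWD mother and a B6 father are known for sterility with failed chromosome pairing in meiosis.

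Most of the 10 places lay at the start of a transcript. Of the 10 hotspot centres, 9 were inside a protein-coding gene (57.0% of all autosomal knockout hotspots were) and 7 lay within 1000 bp of a transcription start listed by RefSeq (32.0% of all). The outer end of a protein-coding gene was that close in 3, Cenpl, Nudcd2 and Kbtbd8 (33.0% of all), and the listed starts at Rsbn1l and Snx13 lay inside the annotated span of the gene. The next 90 hotspots, of ranks 11 to 100, had 62.2% within 1000 bp of a listed start and 72.2% at a gene end, and the difference between the classes was not tested. The RefSeq tables used are of GRCm38.p6, whose chromosomes are those of mm10, the build of the files. They give gene spans and starts but no exons, so exons, introns and UTRs were not assigned here. Not every gene has a listed start. At Mybl1 (rank 16) the centre was 29 bp from a gene end and 263355 bp from the nearest listed start. Places at unlisted starts counted as away from a start, so the shares near a listed start are minimum values.

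Cenpl, a centromere protein gene, had its place closest to a start: the knockout hotspot on chromosome 1 (161068539 to 161073050) was centred 27 bp downstream of the Cenpl start. Kbtbd8, which encodes a substrate adaptor of the CUL3 ubiquitin ligase, had it 147 bp downstream on chromosome 6 (95115644 to 95120411). The hotspot at Nudcd2, a co-chaperone gene of the NudC family, was centred 170 bp downstream of the start on chromosome 11 (40731605 to 40736058). The divergent gene Hmmr, which encodes a spindle-associated protein, starts beside Nudcd2, and the centre lay at -395 bp relative to that start, which is upstream. At Snx13, a sorting nexin gene, the distance was 198 bp downstream on chromosome 12 (35044909 to 35049866). Rsbn1l, a relative of the round spermatid basic protein gene Rsbn1, had the centre 587 bp downstream of its listed start on chromosome 5 (20949065 to 20953404), and 245 bp downstream of the start of the non-coding RNA A630072M18Rik on the other strand.

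The place named for Chd2, a chromatin remodeller gene, lay 16411 bp beyond that gene on chromosome 7 (73555746 to 73560569). It was centred 237 bp downstream of the start of Chaserr, a non-coding RNA gene that neighbours Chd2 and is known to restrain its expression. At St7, the hotspot on chromosome 6 (17838319 to 17842576) lay deep in the gene, 91277 bp downstream of the nearest of 3 listed St7 starts. It was centred 590 bp downstream of the start of Gm52894, a non-coding RNA on the opposite strand. The remaining 3 places were inside genes and away from any listed start. In Muc3, a membrane mucin gene, it lay 12690 bp downstream of the start on chromosome 5 (137151908 to 137154803), and in Enpp6, which encodes a choline-specific phosphodiesterase, 17169 bp downstream on chromosome 8 (47001583 to 47006530). The Zkscan16 place, in a zinc-finger gene on chromosome 4 (58955295 to 58959108), was 5422 bp from the nearer end of the gene. Zkscan16 has no listed start, so the distance of the place from that gene's own start is not known.

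**Figure D1:**
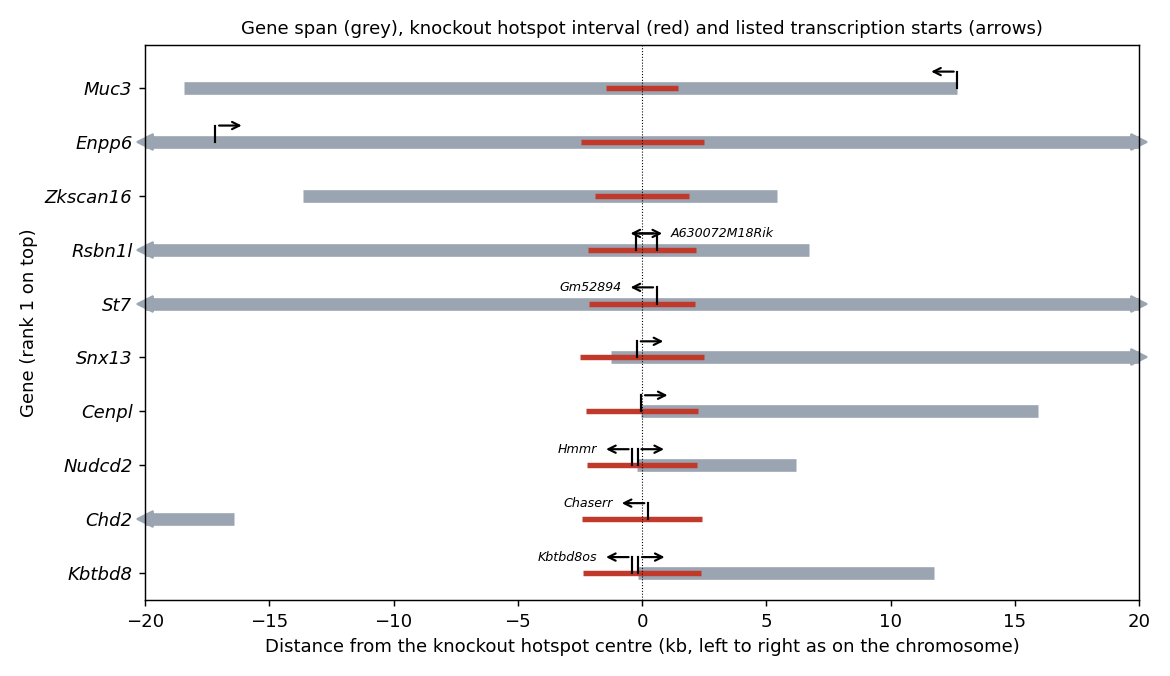
Position of the 10 knockout hotspots relative to genes and listed starts, with the distance from the hotspot centre in kb on the x axis and 1 gene per line. Grey bars are gene spans, red bars hotspot intervals and arrows listed transcription starts. Of the hotspots, 7 cover a listed start within 1000 bp of their centre, and those of Muc3, Enpp6 and Zkscan16 do not. Zkscan16 itself has no listed start.

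The sequence before these starts is shown for the 7 places that have one. The hotspot centres lay 27 to 590 bp past the starts, so the printed bases do not reach the centres. Each is the 250 bases that precede the listed start, from RefSeq on GRCm38.p6. There 8 of the 10 member genes have an entry, and Zkscan16 and Chd2 have none. The windows are chr5:20951823-20952072 (minus strand) for Rsbn1l, chr12:35046939-35047188 (plus) for Snx13, chr1:161070517-161070766 (plus) for Cenpl and chr11:40733411-40733660 (plus) for Nudcd2. The others are chr7:73558396-73558645 (minus) for Chaserr, chr6:95117630-95117879 (plus) for Kbtbd8 and chr6:17841039-17841288 (minus) for Gm52894. Capitals mark CCAAT and GGGCGG on either strand, and in Nudcd2 a copy of each overlaps.
Rsbn1l: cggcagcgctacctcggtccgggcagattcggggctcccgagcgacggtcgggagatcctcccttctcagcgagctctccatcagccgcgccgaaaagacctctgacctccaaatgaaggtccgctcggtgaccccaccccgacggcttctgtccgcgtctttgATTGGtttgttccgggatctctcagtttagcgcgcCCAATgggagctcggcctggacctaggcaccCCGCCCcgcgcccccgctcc
Snx13: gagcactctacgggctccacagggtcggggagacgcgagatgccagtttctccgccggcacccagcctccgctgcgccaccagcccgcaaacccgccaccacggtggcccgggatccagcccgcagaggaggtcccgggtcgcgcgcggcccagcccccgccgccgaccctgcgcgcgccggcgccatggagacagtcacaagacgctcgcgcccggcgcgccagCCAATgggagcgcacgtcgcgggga
Cenpl: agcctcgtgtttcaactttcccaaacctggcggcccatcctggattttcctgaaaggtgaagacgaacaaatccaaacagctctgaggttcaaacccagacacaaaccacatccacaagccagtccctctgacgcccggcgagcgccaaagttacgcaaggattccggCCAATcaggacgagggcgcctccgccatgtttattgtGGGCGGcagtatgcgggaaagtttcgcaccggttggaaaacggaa
Nudcd2: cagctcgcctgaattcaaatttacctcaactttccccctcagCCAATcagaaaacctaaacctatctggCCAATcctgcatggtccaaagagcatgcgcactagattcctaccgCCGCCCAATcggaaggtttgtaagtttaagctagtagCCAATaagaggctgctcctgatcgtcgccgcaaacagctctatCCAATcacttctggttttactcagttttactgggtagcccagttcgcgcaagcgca
Chaserr: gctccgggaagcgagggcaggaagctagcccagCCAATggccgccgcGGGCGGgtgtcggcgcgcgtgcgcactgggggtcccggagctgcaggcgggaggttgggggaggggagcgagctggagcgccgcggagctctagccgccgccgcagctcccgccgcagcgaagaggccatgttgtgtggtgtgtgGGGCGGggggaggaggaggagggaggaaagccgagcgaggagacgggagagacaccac
Kbtbd8: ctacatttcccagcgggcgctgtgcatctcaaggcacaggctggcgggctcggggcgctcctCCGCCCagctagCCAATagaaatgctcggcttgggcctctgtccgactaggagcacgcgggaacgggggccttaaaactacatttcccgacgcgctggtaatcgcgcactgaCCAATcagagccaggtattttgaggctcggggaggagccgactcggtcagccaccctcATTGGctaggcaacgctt
Gm52894: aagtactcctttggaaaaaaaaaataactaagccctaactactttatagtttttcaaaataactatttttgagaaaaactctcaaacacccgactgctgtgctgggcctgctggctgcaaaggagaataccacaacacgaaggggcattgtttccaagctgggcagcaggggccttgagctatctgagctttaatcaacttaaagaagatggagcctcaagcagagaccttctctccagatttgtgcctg

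Most of these windows had more CpG than the median autosomal window, and the one inside St7 did not. Counted over the full RefSeq window, which runs 50 bases further past the start, Snx13 had 46 CpG dinucleotides, Rsbn1l 33, Chaserr 30, Kbtbd8 25, Cenpl 20 and Nudcd2 16. Gm52894, the start inside St7, had 3. The median over 31365 autosomal windows was 7 (quartiles 3 and 21), and over the 12674 windows with a knockout hotspot within 1000 bp it was 21. Over windows with a hotspot of rank 11 to 1000 it was 26. With Hmmr (16), A630072M18Rik (13) and Kbtbd8os, opposite Kbtbd8 (21), the 10 windows at these places had a median of 20.5. They were thus not richer than windows near knockout hotspots in general. The starts of Muc3 and Enpp6, which have no knockout hotspot within 1000 bp, had 9 and 4.

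CCAAT, the letters that the factor NF-Y recognises, was present in 9 of the 10 windows at these places, which include Hmmr, A630072M18Rik and Kbtbd8os on the opposite strand. The windows of Nudcd2 and Hmmr overlap, as do those of Kbtbd8 and Kbtbd8os, and so share letters. Nudcd2 carried 5 copies, Kbtbd8 3, and Rsbn1l and Cenpl 2 each over the full window. Of all autosomal windows 37.3% hold CCAAT, and of those near a knockout hotspot 37.1%. GGGCGG, the core of the GC box, was in 7 of 10, against 36.0% of all windows and 63.7% of those near a knockout hotspot. CCGGAA, an ETS-type core, was in 3 (15.1% of all windows and 27.9% of those near a knockout hotspot). TATAAA was in the Gm52894 window alone (13.6% and 6.86%), and TGACGTCA in 0 (1.83% and 3.40%). Of windows with a hotspot of rank 11 to 1000, 42.0% held CCAAT, 72.4% GGGCGG, 33.3% CCGGAA, 4.58% TATAAA and 3.95% TGACGTCA. All motifs were searched on both strands, and a match is a description of the letters only.

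In the knockout itself, the scores that chose the places ran from 189.5 at Muc3, 146 at Enpp6, 144 at Zkscan16, 129 at Rsbn1l and 126 at St7 to 115 at Snx13, 112 at Cenpl, 107 at Nudcd2, 105 at Chd2 and 104 at Kbtbd8. Just outside were Slc35d1 at 97.3 and Fndc3a at 96.0. The median autosomal score was 7.33. Together the 10 held 0.392% of summed autosomal strength. Their intervals were 2896 bp long at Muc3 and up to 4958 bp at Snx13, against a median of 2088 bp. With the sex chromosomes counted, 1 further hotspot stood among the strongest 11. The unit of the score is not given, and it was used only within a list.

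The places were found in PWDfXB6m more often than in any other list. That cross had 9 of the 10, all except Enpp6, against 3.31% of all autosomal knockout hotspots. PWDfXMOLm had 6 (background 1.19%), and the reciprocal cross B6fXPWDm 4 (0.924%). PWDfXC3Hm held 3 (1.11%), PWDfXCASTm 1 (0.453%) and PWDfX13Rm 0 (0.273%). These shares are over knockout hotspots of all ranks, and the shares by rank are given further on. The autosomal lists held 16759 hotspots in PWDfXB6m, 14912 in PWDfXMOLm and 12918 in B6fXPWDm, and the part of list length in the counts was not tested.

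Among inbred strains, B6 held 5 places (0.957% of all knockout hotspots), PWD 4 (0.794%) and C3H 1 (0.450%). CAST (0.380%), MOL (0.530%) and 13R (0.323%) held 0. Crosses without a PWD parent had few: 4 in C3HfXB6m (0.917%), 2 in MOLfXB6m (0.670%), 2 in B6fXMOLm (0.457%), and 1 each in C3HfXMOLm (0.564%) and B6fXC3Hm (0.467%). The other 8 crosses had 0: CASTfXMOLm (0.433%), CASTfXB6m (0.423%), B6fXCASTm (0.387%), MOLfX13Rm (0.383%), C3HfX13Rm (0.377%), C3HfXCASTm (0.327%), 13RfXB6m (0.317%) and B6fX13Rm (0.230%). Over all 25 lists, 43 of 250 combinations of place and list were found.

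**Figure D2:**
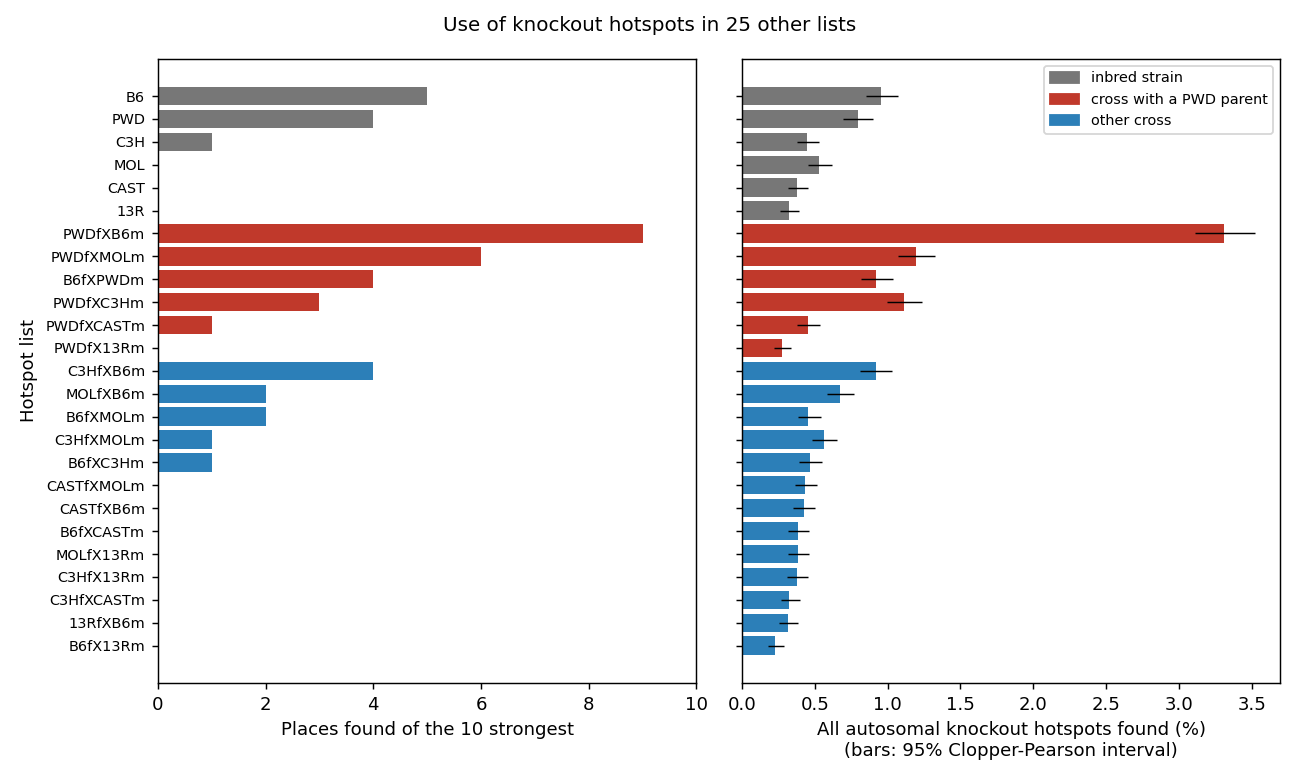
Number of the 10 places found in each of 25 lists (left) and percent of all 29991 autosomal knockout hotspots found in the same list (right, with 95% Clopper-Pearson intervals that cover counting error only). PWDfXB6m is highest in both, with 9 places and 3.31%, and every list with a 13R parent has 0 places.

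Where a place was found, its rank differed widely between lists. Strength is given as a percentile, the percent of autosomal hotspots in the same list with a lower score. For each of the 9 places found anywhere, the highest percentile was in PWDfXB6m, where the median over the 9 was 30.3 and the range 12.4 to 73.5. Of the 9, 6 were in the weaker part of that list, below its median. A percentile depends on list length, and PWDfXB6m had 16759 autosomal hotspots against 12918 in B6fXPWDm. Counted from the strongest hotspot, Muc3 had rank 3653 in B6fXPWDm and 4447 in PWDfXB6m, and St7 6294 and 6686.

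Rsbn1l was found in 7 lists. Its hotspot stood at percentile 56.6 in PWDfXB6m, 44.0 in PWD, 33.1 in PWDfXMOLm, 15.1 in B6, 14.9 in B6fXPWDm, 1.48 in MOLfXB6m and 0.368 in C3HfXB6m. The other 18 lists were without it by the distance rule, although PWDfXC3Hm had a hotspot centred 590 bp away, at percentile 1.54. PWD and the crosses PWDfXB6m and PWDfXMOLm were the high ones.

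Nudcd2 was found in 7 lists as well. Its percentile was 39.4 in PWDfXB6m, 11.1 in C3HfXB6m, 9.32 in PWD, 9.31 in PWDfXC3Hm, 9.07 in B6, 5.57 in B6fXPWDm and 0.329 in PWDfXMOLm. PWDfXB6m alone stood apart, and the rest lay in the lowest part of their lists. The centres were 41 to 295 bp from the knockout centre.

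By the distance rule, Chaserr, Snx13 and Cenpl were found in lists with a PWD parent and in no other, which did not hold for any of them when overlapping intervals were counted. The Chaserr place, named for Chd2, had percentile 30.3 in PWDfXB6m, 13.7 in PWDfXC3Hm and 1.58 in PWDfXMOLm. Hotspots centred 559 to 573 bp away lay in B6fXPWDm, B6fXC3Hm and C3HfXB6m, at percentiles 5.60, 4.05 and 7.43. Snx13 had percentile 24.2 in PWDfXB6m, 9.25 in PWDfXMOLm and 0.170 in PWD, with PWDfXC3Hm 798 bp away at percentile 2.30. In the 6 lists with a CAST parent an interval centred 3033 to 3140 bp away overlapped the Snx13 one, so that by overlap the place was in 4 crosses with a PWD parent and 4 others (unadjusted exact p = 0.319). Cenpl had 21.0 in PWDfXB6m and 5.98 in PWDfXMOLm. Overlapping intervals centred 1248 to 1470 bp away lay in 7 further lists, among them C3H, C3HfXB6m, B6fXC3Hm, B6fXMOLm, MOLfXB6m and C3HfXMOLm, so that by overlap it was in 3 crosses with a PWD parent and 5 others (unadjusted exact p = 1.0). Kbtbd8 was found in PWDfXB6m alone, at percentile 12.4, and the nearest hotspot of any other list was 8030 bp away.

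Inside genes, the St7 place was the most widely used of the 10, in 13 lists. Percentiles ran from 3.82 in PWDfXCASTm through a median of 35.2 to 60.1 in PWDfXB6m. PWDfXC3Hm (52.5), B6fXPWDm (51.3) and PWDfXMOLm (48.3) followed, and the inbred values were 36.6 in PWD, 32.9 in B6 and 9.11 in C3H. All centres lay 148 to 243 bp to the same side of the knockout centre, the side of the Gm52894 start. In the 12 lists without it, the nearest hotspot was at least 21933 bp away.

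Muc3, the strongest place of the knockout, was also the one that ranked highest elsewhere. It stood at percentile 73.5 in PWDfXB6m, 71.7 in B6fXPWDm, 57.0 in B6fXMOLm and 43.1 in B6, and in no list without B6. It was missing from 7 lists with a B6 parent, and the nearest hotspot in the lists without it was 7287 bp away. Zkscan16 was likewise found in B6 lists, at percentile 7.0 in B6, 14.5 in C3HfXB6m and 19.3 in PWDfXB6m.

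Enpp6, second in the knockout, was found in 0 of the 25 lists. PWDfXC3Hm had a hotspot centred 522 bp away at percentile 26.1. In 9 lists a hotspot interval overlapped the knockout interval, and in all 9 it was centred 2331 to 3033 bp to the left of the knockout centre, as in C3HfXMOLm (percentile 93.4), PWDfXC3Hm (81.8), MOL (67.4) and B6 (7.06). PWDfXB6m had none there.

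**Figure D3:**
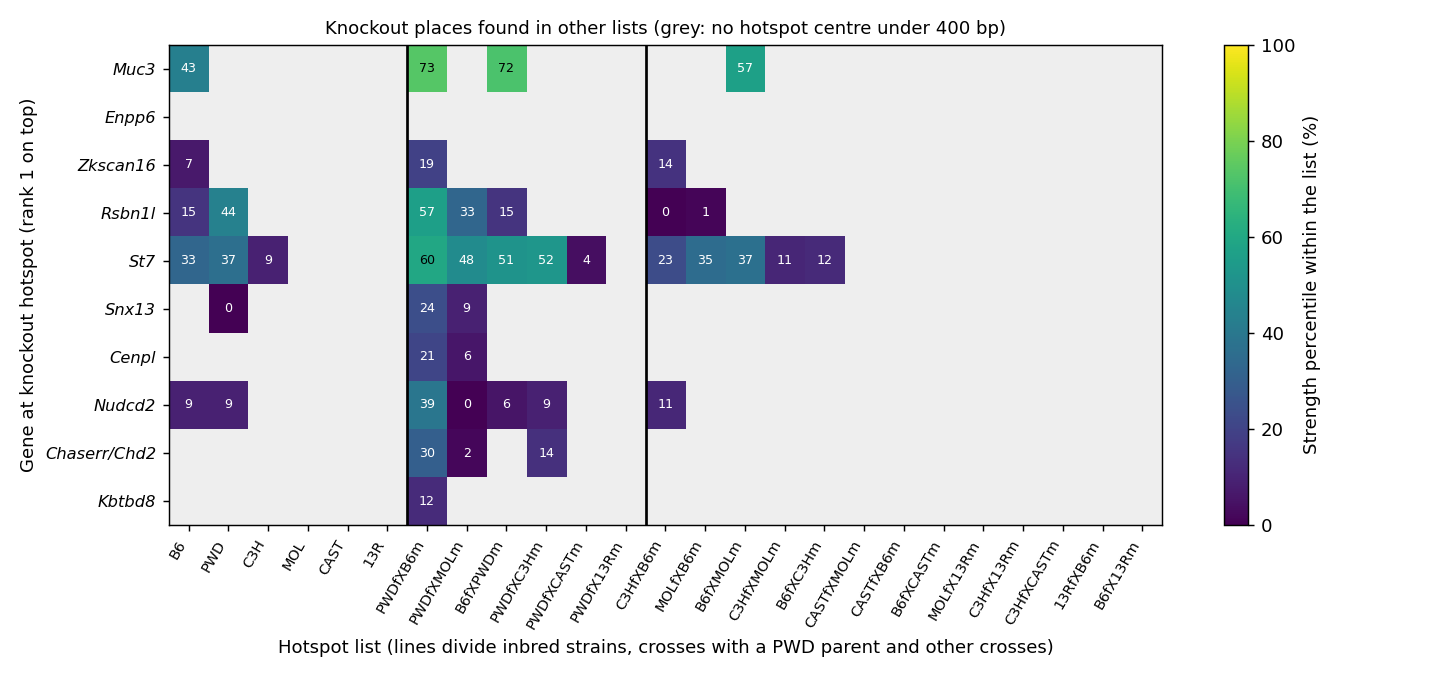
Strength percentile of each of the 10 places (rows, by knockout rank) in each of 25 lists (columns), with grey where no hotspot was centred less than 400 bp away. The PWDfXB6m column is filled for 9 rows and holds the highest value of each, while the St7 row is the longest, with 13 lists.

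Most of the places found in PWDfXB6m were also found in an inbred parent. Of the 9, Rsbn1l, St7 and Nudcd2 were found in both inbred B6 and PWD, Muc3 and Zkscan16 in B6 only, and Snx13 in PWD only. Cenpl, Chd2 and Kbtbd8 were found in neither parent. This split was not counted over all 993 knockout hotspots found in PWDfXB6m, so it describes these places only. The reciprocal cross B6fXPWDm held 4 places, all of them places found in B6: Muc3, Rsbn1l, St7 and Nudcd2. At these 4 the percentiles in PWDfXB6m and B6fXPWDm were 73.5 and 71.7, 56.6 and 14.9, 60.1 and 51.3, and 39.4 and 5.57. With 1 library of each direction, these differences have no replicate check.

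Crosses with a PWD parent held a mean of 3.83 ± 3.31 places (SD, n = 6) and other crosses 0.769 ± 1.24 (n = 13). The counts overlapped, from 0 to 9 and from 0 to 4, and the difference of 3.06 fell to 2.03 without PWDfXB6m. Presence of each autosomal knockout hotspot was compared between these sets of crosses with a two-sided Fisher's exact test, adjusted by Benjamini-Hochberg over all 29991. Many crosses have a parental strain in common, while the test treats each as independent. By this exact test 0 of the 29991 passed (0% called, smallest adjusted exact p = 0.158), while 142 had an unadjusted p under 0.05, all of them found more often in crosses with a PWD parent (0.473%). Of the 10 places, Nudcd2 (4 of 6 crosses against 1 of 13, unadjusted exact p = 0.0173) and Chd2 (3 of 6 against 0 of 13, exact p = 0.0206) were among them. For all 10 the adjusted exact p was 1.00. The smallest p that 6 and 13 crosses allow is 3.69e-05, and 94.6% of the sites were found in no cross. Even sites at that smallest p had an adjusted exact p of 0.158. The adjusted values therefore could not decide whether use of a single place differed.

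Lists with a 13R or CAST parent held almost none of the 10 places. Of 120 combinations of place and list in the 12 lists with such a parent, 1 was found, St7 in PWDfXCASTm, against 42 of 130 in the other 13 lists. The places of ranks 11 to 20 gave 2 and 38. The share of all knockout hotspots found was 0.230% to 0.453% in the first set and 0.450% to 3.31% in the second, and the autosomal list lengths overlapped, at 9748 to 18270 and 11968 to 18130. The split of the lists by these parents was chosen once the values had been seen, and no test of it was made.

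The share of knockout hotspots found differed between rank classes, and the course differed between lists. PWDfXC3Hm had 30% of ranks 1 to 10 and 40% of ranks 11 to 100, and C3H and B6fXC3Hm had 10% of each. In PWDfXB6m, 90.0% of ranks 1 to 10 were found, 78.9% of ranks 11 to 100, 42.2% of ranks 101 to 1000, 4.16% of ranks 1001 to 10000 and 0.795% of the ranks after those. PWDfXMOLm gave 60%, 48.9%, 11.3% and 1.10%, and B6 50%, 37.8%, 5.78% and 0.733%. The median of the 13 crosses without PWD was 0% and 2.22% in the first 2 of these classes. No difference between the classes was tested. Among the places of ranks 11 to 20, PWDfXB6m had 9 (Slc35d1, Fndc3a, Sec62, 3830406C13Rik, Mybl1, Acbd5, Poli, Ints8 and Rab28). Their median percentile in PWDfXB6m was 34.5, and 30.3 for the 9 found among the strongest 10.

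**Figure D4:**
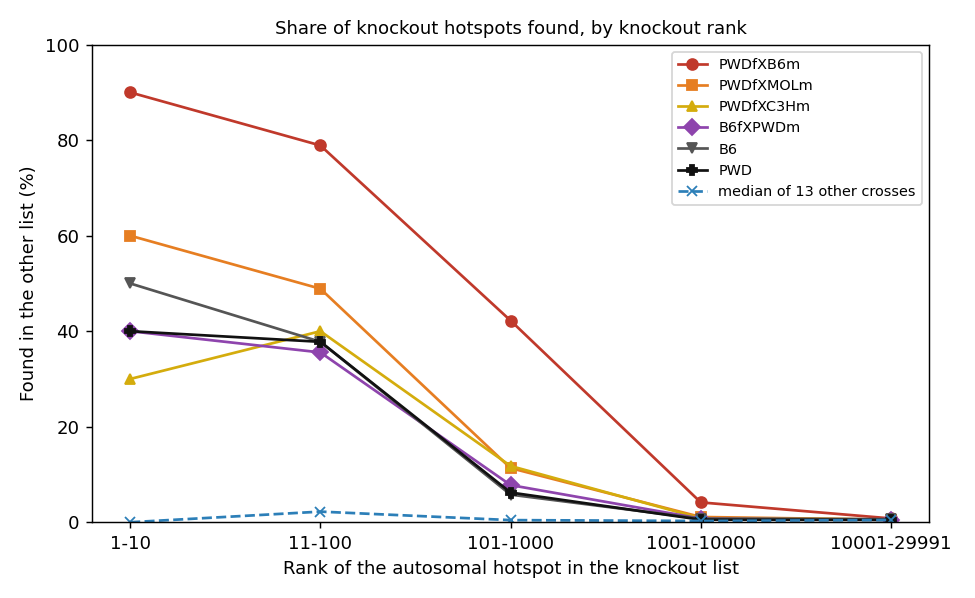
Percent of autosomal knockout hotspots found in other lists (y axis) by their rank in the knockout list (x axis), for 6 lists and the median of the 13 crosses without a PWD parent. The PWDfXB6m line is highest in every class and falls from 90.0% at ranks 1 to 10 to 4.16% at ranks 1001 to 10000.

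Genes related to the 10 by name or family were taken from a list of 57, of which 56 lie on autosomes. Whether they share descent with the 10 was not checked, and a shared name such as Cenp or Muc need not mean it. A knockout hotspot was centred within 1000 bp of an end in 35 of the 56 (62.5%), against 51.6% of all autosomal protein-coding genes, and no test was made. The autosomal centromere protein genes on this list had one in 6 of 6, with Cenpk at rank 324, and the sorting nexin genes on it in 3 of 3. The chromatin remodeller genes of the Chd family had one in 6 of 8, the Zkscan zinc-finger genes in 7 of 10, the Enpp genes in 4 of 6 and the Kbtbd genes in 5 of 8, with Kbtbd2 at rank 715. Nudcd1, a relative of Nudcd2, was the strongest, at rank 58. None of the 10 other mucin genes on the list had one at an end. The Muc3 place, 12692 bp from the nearer end of that gene, would not count by this measure either. Hotspots inside the other mucin genes were not counted.

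The same genes held other hotspots, centred away from the knockout hotspots. For each gene the strongest hotspot of any of the 25 lists within its span or 10000 bp of it, other than the knockout place, was followed in the same way. It was selected by its strength, so its percentile is a description. None of these 10 places was found in the knockout list by the distance rule, although the interval at Cenpl overlapped that of the knockout place.

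In 6 genes this second place was limited to lists with 1 parental strain. The share of all hotspots limited in this way was not counted, so the 6 are a description of these places only. Inside St7 a hotspot 61347 bp from the knockout place (chromosome 6, 17776418 to 17781783 in C3HfX13Rm) was found in all 6 lists with a 13R parent, at percentiles 98.2 to 99.8, and in no other. Near Nudcd2 a hotspot 6579 bp away (chromosome 11, 40739024 to 40741797 in 13R) was found in the same 6 lists, at percentiles 51.2 to 81.0, and the weak one near Zkscan16 in 3 of them. Inside Rsbn1l, 10426 bp from the knockout place (chromosome 5, 20938692 to 20942925 in CAST), it was in all 6 lists with a CAST parent at percentiles 83.8 to 99.4. Within Chd2 (chromosome 7, 73466789 to 73470960 in MOL) it was in all 7 lists with a MOL parent at percentiles 49.3 to 96.1. At Kbtbd8 (chromosome 6, 95126249 to 95130074 in MOL) it was in 6 of the 7 at percentiles 23.6 to 81.8.

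B6 and C3H lists shared a hotspot inside Snx13, 18805 bp from the start-site place (chromosome 12, 35064629 to 35067756 in C3HfXB6m). It stood at percentile 91.8 in B6, 84.5 in C3H, 92.7 in C3HfXB6m and 90.3 in B6fXC3Hm, and at 47.2 in PWDfXB6m. Enpp6 held a hotspot 48274 bp from the knockout place (chromosome 8, 46954192 to 46957373 in B6fXCASTm) at percentile 99.6 in both crosses of B6 and CAST and 97.7 in PWDfXB6m. In inbred B6 it stood at 33.0, and it was not found in inbred CAST, C3H, MOL or PWD. Cenpl had a hotspot 1470 bp from the knockout place (chromosome 1, 161070101 to 161074428 in C3HfXMOLm), found in 7 lists, whose interval overlapped the knockout hotspot. It stood at percentile 97.8 in C3HfXMOLm and 82.4 in PWDfXC3Hm, against 10.2 in inbred C3H, and was not found in inbred MOL or PWD. In Muc3 the strongest other hotspot was found in PWDfXC3Hm alone, at percentile 41.3.

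**Figure D5:**
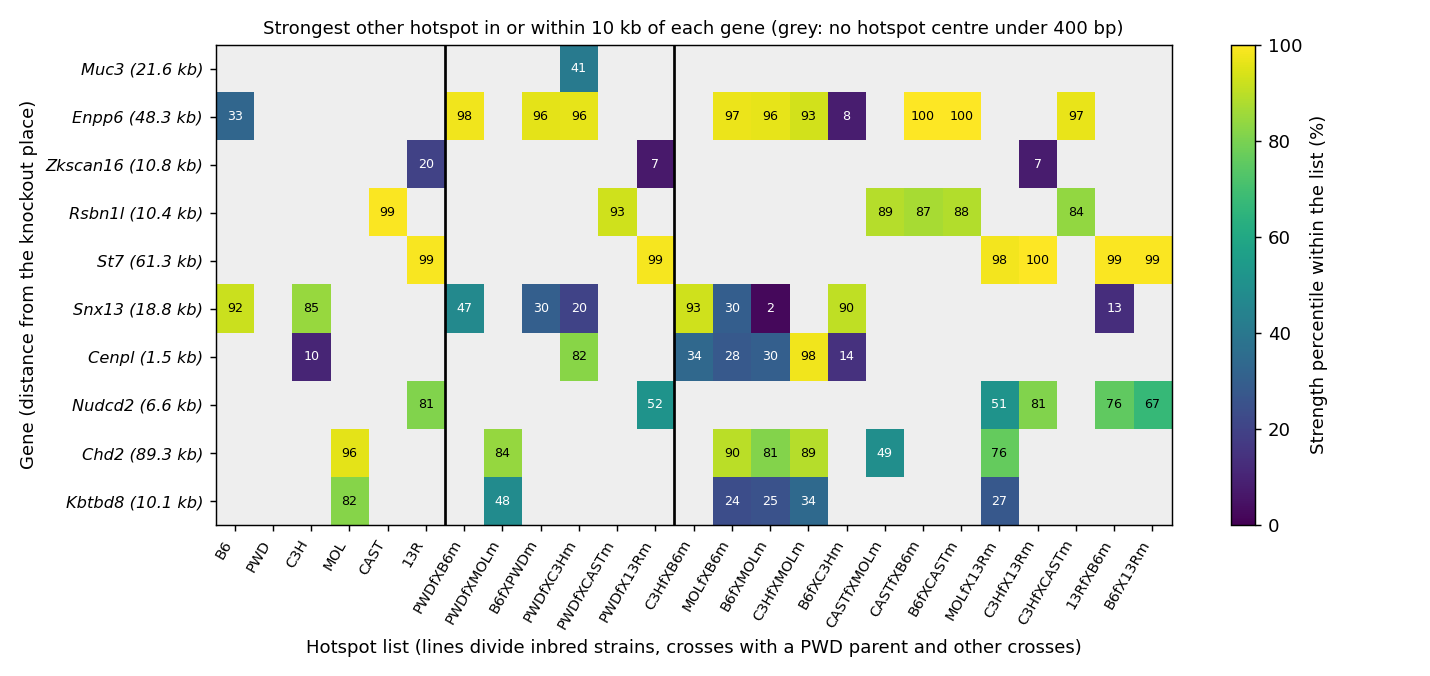
Strength percentile of the strongest other hotspot in or within 10000 bp of each gene (rows, with the distance from the knockout place in kb) in each of 25 lists (columns). The St7 and Nudcd2 rows are filled only in lists with a 13R parent, the Rsbn1l row only with CAST and the Chd2 and Kbtbd8 rows only with MOL.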

How the data were processed

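DMC1 SSDS libraries of mouse testis gave 26 hotspot lists, 1 per genotype. The authors deposited a strength score per hotspot; its normalization is not stated, and 104 values in 22 lists lie below 0, so it was used only as a rank or percentile within a list. CASAVA 1.8, MACS2 2.0.10 and the build mm10 are named per the submitters' processing notes; the aligner is not given in the sources used here. Read depth is unknown; lists held 10445 to 30929 hotspots, and Clopper-Pearson intervals (95%) cover counting error only. The members and lists were chosen with earlier results of these data known. Matching used centres under 400 bp on the 19 autosomes, and coordinates are 1-based. Genes and promoter windows came from RefSeq tables of GRCm38.p6. Named genes were the 10 members, the genes at ranks 11 to 20, and genes related by name or family as counts with up to 4 examples. The motifs, the strongest other hotspots and the division by 13R and CAST parents were chosen after seeing the data. The exact test per site was first run on simulated data. The planted sites were in every cross with a PWD parent and in no other, a sharper split than any of the 10 places had. That run therefore does not show what the test could find for these places. The alternatives were other matching rules, strongest 10000 hotspots, places ranked per base, other windows, and crosses left out. Python 3.11.15, pandas 2.3.3 and scipy 1.17.1 were used.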

Additional observations from a re-analysis of the deposited data

Results flagged for a closer look

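The share of all autosomal knockout hotspots found in PWDfXB6m, 3.31%, lay far from those of the other 5 crosses with a PWD parent, the nearest of which was 1.19% in PWDfXMOLm. The gap was 0.697 of the range of the 6 crosses, above Dixon's critical value of 0.625. Of 6 sets of values looked at in this way, this was the one that stood out. Chance flags about 1 set in 20 where values are independent, and a flag somewhere among 6 sets is likelier than that. The 6 crosses share a PWD parent, and the lists were chosen with earlier results known. The flag is therefore a description and not a test. The count of the 10 places in the same cross, 9 against 6 in PWDfXMOLm, did not reach that limit. The cause was not tested.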

How the results depend on the processing

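No paired analysis was possible because each genotype has 1 library, and for the same reason no replicate could be left out. The count of 9 places in PWDfXB6m was 8 with centres under 200 bp, 6 with reciprocal overlap of at least 50% and 9 with any overlap, and fell to 3 with lists cut to their strongest 10000 hotspots. Ranking knockout hotspots by score per base gave 9 of 10 too, for a set that shared 7 places. The difference in places found between crosses with a PWD parent and others was 1.01 in the strongest 10000 and between 1.92 and 3.58 otherwise. The exact test called 24 knockout hotspots with centres under 1000 bp and 71 with any overlap. It called 0 in the main rule and the other alternatives. All 10 places kept an adjusted exact p of 1.00 in every one of their 70 alternatives. In the main rule even the smallest p that the crosses allow, 3.69e-05, had an adjusted exact p of 0.158. The unchanged values therefore do not show that the places were used equally in both sets of crosses. Places near an outer gene end numbered 3 with windows of 500 and 1000 bp and 4 with 2500 bp; near a listed start of a protein-coding gene there were 5, and near any listed start, an alternative added after seeing the data, 7. Read depth being unknown, a place not found is one not called in that list, not one without breaks.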

Other observations

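Snx13 carried a further hotspot before its start. In the 6 lists with a CAST parent a hotspot was centred 3033 to 3140 bp to the left of the knockout centre, and its interval overlapped the knockout interval. It stood at percentile 90.1 in CAST, 73.2 in PWDfXCASTm, 69.6 in C3HfXCASTm, 62.4 in CASTfXB6m, 58.4 in CASTfXMOLm and 51.3 in B6fXCASTm.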
